A study of Rattus norvegicus with 14 samples.

Results

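Cholesterol and fatty acids are built from the same cytosolic acetyl units, and the genes described here carry out, supply or control that synthesis. Of 33 genes named for these pathways, 28 were found by their symbol in the deposited table of 16472 genes. They are 13 enzymes of the mevalonate and sterol pathway, 4 genes of the sterol sensor (Srebf2, Insig1, Insig2 and Scap), 3 enzymes that supply activated acetyl units (Acly, Acss2 and Aacs) and 8 enzymes that make, lengthen or desaturate fatty acids. Mvk, Sc5d, Srebf1, Acat2 and Fasn were not matched by symbol and are not analysed here.

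In the mevalonate pathway, acetyl-CoA units are joined and reduced to mevalonate, mevalonate is turned into isoprenoid units, these are joined to squalene, and squalene is closed into a sterol ring that is trimmed step by step to cholesterol. The transcription factor encoded by Srebf2 is held in the endoplasmic reticulum by Scap and the Insig proteins while sterols are plentiful, and is escorted by Scap to the Golgi, cut and released to the nucleus when they run low. The nuclear factor binds sterol regulatory elements in promoters of these enzymes, beside sites for NF-Y (CCAAT boxes) and Sp1 (GC boxes). Fatty acids start from the same acetyl-CoA, which acetyl-CoA carboxylase turns into malonyl-CoA. In the retina, photoreceptor outer segments are rich in polyunsaturated fatty acids, and both cholesterol and these lipids are made locally as well as taken up.

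The data came from Sprague-Dawley rats of 6-8 weeks, in a cycle of 14 h light and 10 h dark. Pineal glands (6 libraries) and retinas (6 libraries) were collected at 6 zeitgeber times, counted in hours from lights on, of which ZT1, ZT7 and ZT13 fell in the light period and ZT15, ZT19 and ZT23 in darkness, and each library was made from a pool of 10 animals. Mixed tissue (2 libraries, at ZT7 and ZT19) held equal amounts of RNA from 15 tissues of 3 animals each time, namely the retina, spinal cord and brain regions (cerebellum, cortex, hindbrain, hypothalamus and midbrain), glands (adrenal gland and pituitary) and the liver, kidney, small intestine, lung, heart and skeletal muscle. With only 1 library per tissue and time, the libraries of a tissue, taken at different times of day, stand in for replicates, and p-values measure only the spread between these pools around the fitted model. The mixed pools hold some retina, so a difference between retina and mixed tissue is set against a pool that contains it.

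Values are FPKM, which count fragments by transcript length and library size, as the authors deposited them, summed over the transcripts of a gene. Summed FPKM per library lay between 152281 and 212634, and 8852 to 11399 genes reached 1 FPKM. Read counts were not used here and depth is unknown; a fragment that falls in a 1 kb transcript was roughly estimated to be worth 0.0216 to 0.0527 FPKM. By marker sums the tissues matched their labels. The 5 pinealocyte markers summed to 4784 to 5349 FPKM in pineal glands, against 967 to 1891 FPKM in retinas. The 6 photoreceptor markers summed to 327 to 626 FPKM in pineal glands, against 14191 to 18750 FPKM in retinas. In the test of pineal gland against retina, 4 of the 5 pinealocyte markers differed, 3 higher and 1 lower in the pineal gland. All 6 photoreceptor markers were lower there. Oligodendrocyte, liver and adrenal cortex markers summed to at most 27.3, 9.70 and 1.83 FPKM in any pineal or retina library. The retina library of ZT7 had the highest value of the 6 retina libraries for 51.2% of all 10416 genes tested over time, and the pineal library of ZT19 had the lowest of the 6 pineal libraries for 39.6%.

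The sequences around 5 gene starts are printed as examples. All 5 genes differed between the tissues as described below, and 4 of them belong to the sterol pathway or its sensor. The 5 do not represent the 23 sequences matched, since each holds CCAAT and they include both that hold TCACNCCA. Dhcr7, also described below, has a matched sequence with neither and is not printed. Each printed sequence is the RefSeq sequence of the GRCr8 assembly from 250 bases before to 50 bases after the annotated start, read in the direction of the gene. They lie at chr2:53382054-53382353 on the plus strand (Hmgcs1), chr16:29746863-29747162 on the plus strand (Sc4mol), chr7:115543057-115543356 on the plus strand (Srebf2), chr4:8057720-8058019 on the minus strand (Insig1) and chr10:85963582-85963881 on the minus strand (Acly). Capitals mark CCAAT and the core of a sterol regulatory element, TCACNCCA, on either strand, so that ATTGG is a CCAAT box on the other strand.
Hmgcs1: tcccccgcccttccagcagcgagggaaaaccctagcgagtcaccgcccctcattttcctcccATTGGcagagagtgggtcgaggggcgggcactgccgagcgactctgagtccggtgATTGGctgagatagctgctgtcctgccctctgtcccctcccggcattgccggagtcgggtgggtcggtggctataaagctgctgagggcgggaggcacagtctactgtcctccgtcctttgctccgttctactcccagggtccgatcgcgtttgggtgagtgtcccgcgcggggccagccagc
Sc4mol: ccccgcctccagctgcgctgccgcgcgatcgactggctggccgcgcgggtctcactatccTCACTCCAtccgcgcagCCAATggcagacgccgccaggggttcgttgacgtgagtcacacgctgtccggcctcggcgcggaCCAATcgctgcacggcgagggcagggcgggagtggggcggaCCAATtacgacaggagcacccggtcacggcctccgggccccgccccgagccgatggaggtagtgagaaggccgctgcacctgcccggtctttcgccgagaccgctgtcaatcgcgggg
Srebf2: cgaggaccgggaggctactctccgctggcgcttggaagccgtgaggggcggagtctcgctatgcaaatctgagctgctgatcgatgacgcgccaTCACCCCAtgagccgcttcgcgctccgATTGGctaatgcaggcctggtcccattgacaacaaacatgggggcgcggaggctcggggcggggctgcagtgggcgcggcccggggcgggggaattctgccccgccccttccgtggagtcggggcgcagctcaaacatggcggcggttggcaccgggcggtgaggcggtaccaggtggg
Insig1: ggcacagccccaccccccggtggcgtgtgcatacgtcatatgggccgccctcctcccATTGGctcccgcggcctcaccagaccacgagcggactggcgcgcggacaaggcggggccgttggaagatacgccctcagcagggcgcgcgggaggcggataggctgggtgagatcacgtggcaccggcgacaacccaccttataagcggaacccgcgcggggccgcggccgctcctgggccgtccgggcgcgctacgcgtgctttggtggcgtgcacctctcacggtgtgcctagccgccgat
Acly: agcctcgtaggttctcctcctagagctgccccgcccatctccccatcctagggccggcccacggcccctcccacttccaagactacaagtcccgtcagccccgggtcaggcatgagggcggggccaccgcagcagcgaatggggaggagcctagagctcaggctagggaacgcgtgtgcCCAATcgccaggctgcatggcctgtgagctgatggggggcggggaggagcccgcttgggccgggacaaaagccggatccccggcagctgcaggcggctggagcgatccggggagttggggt

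Such sequences were matched for 23 of the 28 genes. TCACNCCA was found in 2 of the 23 (8.7%), Sc4mol and Srebf2, against 3.96% of all 27457 promoters in the table. CCAAT was found in 17 of 23 (73.9%), against 37.7% of all promoters, and the GC box GGGCGG in 15 of 23 (65.2%), against 34.7%. The E-box CACGTG was found in 3 of 23 (13%), Elovl5, Insig1 and Scap, against 6.63%, and CACNCCAC in 3 of 23 (13%), Elovl5, Fads1 and Insig1, against 5.74%. TCACNCCAC, TCACNCNAC, CACCCCAC and TCGCCTGA were found in 0 of 23, against 1.15%, 2.52%, 2.58% and 0.339% of all promoters. Both strands were searched, TCACNCCAC contains both TCACNCCA and CACNCCAC, and TCACNCNAC and CACCCCAC overlap it in part; a match is a run of letters and no measured binding site.

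Together the 28 genes summed to 434 ± 35.5 FPKM in pineal glands and 421 ± 32.5 FPKM in retinas (SD, n = 6 each). In mixed tissue they summed to 1137 ± 46.0 FPKM (SD, n = 2). These are 0.209% to 0.263% of all FPKM in pineal glands, 0.253% to 0.273% in retinas and 0.550% to 0.577% in mixed tissue. The near-equal sums of pineal gland and retina were made up differently. Acly alone held 30.9% to 42.9% of the sum in pineal glands, against 9.62% to 10.4% in retinas, and Scd held 14.6% to 25.4% in pineal glands, against 23.2% to 27.7% in retinas. Without Acly and Scd the other 26 genes summed to 194 ± 15.1 FPKM in pineal glands and 272 ± 21.9 FPKM in retinas (SD, n = 6 each), and the ranges, 176 to 214 FPKM and 247 to 310 FPKM, did not overlap.

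By mean FPKM, the order of the leading genes in the pineal gland was Acly, Scd, Pmvk and Aacs. In the retina it was Scd, Acly, Hmgcs1 and Srebf2, and in mixed tissue Scd, Hmgcs1, Fads2 and Fads1. Acly ranked 116th of all 16472 genes in the pineal gland, and Scd ranked 31st in mixed tissue. Hsd17b7 and Acacb, which encode a late sterol reductase and the mitochondrial-surface form of acetyl-CoA carboxylase, were lowest in pineal gland and retina: Acacb stayed below 1 FPKM in all 12 of these libraries and Hsd17b7 in 11 of them. The plot of all 28 genes by library shows these levels.

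**Figure D1:**
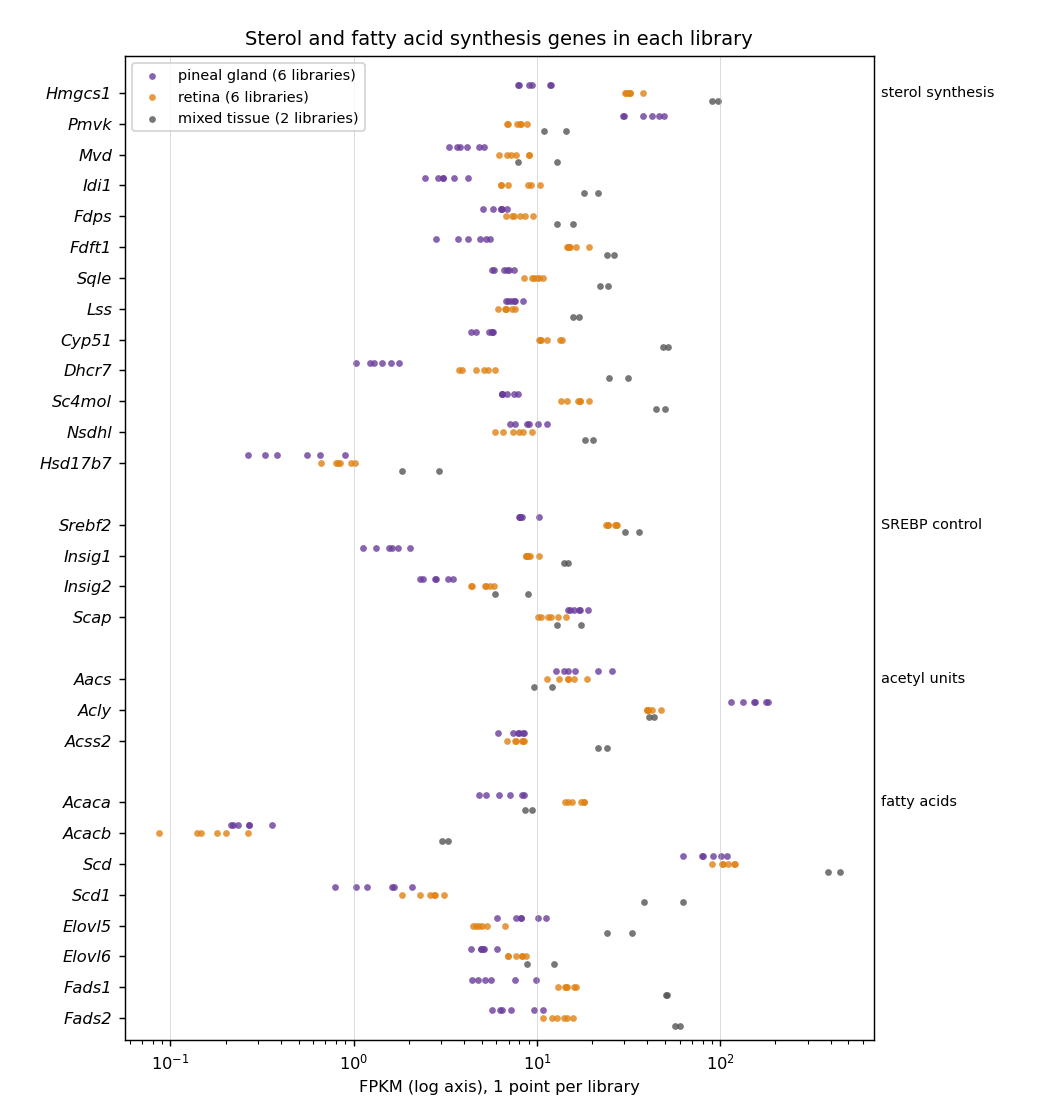
FPKM of each of the 28 genes (log axis), with 1 point for each library: pineal gland (purple, 6 libraries), retina (orange, 6) and mixed tissue (grey, 2), grouped by role. Acly and Pmvk lie to the right in the pineal gland, while Hmgcs1, Fdft1, Dhcr7, Srebf2 and Insig1 lie lowest in the pineal gland, higher in the retina and highest in mixed tissue.

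Between pineal gland and retina, most enzymes of the sterol pathway and the sensor genes Srebf2 and Insig1 were lower in the pineal gland, while Pmvk and Acly were several-fold higher there. In all, 23 of 28 genes differed at an adjusted p under 0.05, 4 of them higher and 19 lower in the pineal gland. The background was large, since 68.9% of all 11656 genes tested differed between these tissues, with 36.9% higher and 32% lower. The median log2 difference of the 28 genes was -0.56, against 0.03 for all genes tested. Acacb and Hsd17b7 entered this fit only or mainly through the mixed tissue libraries. Without them 22 of 26 genes differed, 4 higher and 18 lower. Of the 10416 genes that would enter without the mixed tissue libraries, 72.7% differed, 38.9% higher and 33.8% lower. The libraries of the 2 tissues did not overlap for 17 of 28 genes, 3 higher and 14 lower in the pineal gland. Of all genes tested 50% did not overlap, 25.6% higher and 24.4% lower. Acacb and Hsd17b7 were not among the 17.

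The entry into the pathway was lower in the pineal gland. Hmgcs1 encodes the cytosolic HMG-CoA synthase, an early enzyme of the mevalonate pathway, and lies at chr2:51737090-51754583 in rn4, the build of the deposited table. Its lowest, median and highest values were 7.86, 9.22 and 11.9 FPKM in pineal glands and 30.1, 31.8 and 37.7 FPKM in retinas, so that every pineal library lay below every retina library. The log2 difference was -1.66 (SE 0.10, limma adjusted p = 9.76e-10), and the pineal mean was 0.298 of the retina mean.

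The next steps did not all follow. Pmvk, phosphomevalonate kinase, at chr2:181655658-181665214, ran from 29.3 over a median of 40.1 to 49.3 FPKM in pineal glands, against 6.90, 7.89 and 8.86 FPKM in retinas. It was the only sterol pathway enzyme of the 13 that was higher in the pineal gland, by a log2 difference of 2.17 (SE 0.13, limma adjusted p = 7.17e-10), which is 5.03 times the retina mean. Mvd, Idi1 and Fdps, which turn its product into isoprenoid diphosphates, were lower in the pineal gland, with means of 4.14, 3.21 and 6.15 FPKM in pineal glands and 7.66, 8.03 and 7.95 FPKM in retinas.

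Fdft1, squalene synthase, commits isoprenoid units to sterols and lies at chr15:42425336-42453390. Its lowest, median and highest values were 2.81, 4.54 and 5.52 FPKM in pineal glands and 14.6, 15.1 and 19.2 FPKM in retinas, with no overlap. The log2 difference was -1.66 (SE 0.12, limma adjusted p = 8.01e-09). Sqle, which adds the epoxide to squalene, was lower as well, at 6.57 ± 0.694 FPKM in pineal glands and 9.79 ± 0.796 FPKM in retinas (SD, n = 6 each). Lss, which closes the ring, did not pass the test, at 7.41 ± 0.588 FPKM in pineal glands and 6.86 ± 0.506 FPKM in retinas.

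Among enzymes that trim the ring, Cyp51 (lanosterol demethylase), Sc4mol (a sterol methyl oxidase) and Dhcr7 (the reductase of a last step to cholesterol) were lower in the pineal gland. Dhcr7, at chr1:204245562-204258913, had 1.03, 1.35 and 1.77 FPKM as lowest, median and highest values in pineal glands, against 3.75, 4.87 and 5.87 FPKM in retinas. Its libraries did not overlap, and its log2 difference was -1.27 (SE 0.11, limma adjusted p = 7.47e-08). Cyp51 ran from 4.36 to 5.75 FPKM in pineal glands and from 10.2 to 13.7 FPKM in retinas. Sc4mol, whose promoter above holds TCACNCCA and 3 CCAAT boxes, ran from 6.41 to 7.90 FPKM in pineal glands and from 13.5 to 19.2 FPKM in retinas. Nsdhl, the dehydrogenase that follows Sc4mol, did not pass the test between the tissues.

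Of the 4 sensor genes, 3 were lower and 1 was higher in the pineal gland. Srebf2, at chr7:120522511-120580212, had 8.01, 8.12 and 10.2 FPKM as lowest, median and highest values in pineal glands, against 23.9, 25.4 and 27.4 FPKM in retinas. Insig1, at chr4:2577468-2585682, an Srebf2 target as well as a part of the sensor, had 1.12, 1.59 and 2.03 FPKM in pineal glands, against 8.67, 8.92 and 10.3 FPKM in retinas. Neither gene overlapped between the tissues. The log2 differences were -1.49 for Srebf2 (SE 0.07, limma adjusted p = 6.65e-11) and -1.98 for Insig1 (SE 0.09, limma adjusted p = 1.87e-11). Insig2 was lower too, at 2.84 ± 0.475 FPKM in pineal glands and 5.09 ± 0.582 FPKM in retinas (SD, n = 6 each). Scap, the escort, went the other way, at 16.5 ± 1.49 FPKM in pineal glands and 11.9 ± 1.55 FPKM in retinas (SD, n = 6 each), a log2 difference of 0.44 (limma adjusted p = 0.000726).

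In the supply of acetyl units, 1 of 3 genes differed. Acly, ATP citrate lyase, at chr10:89420934-89471398, cuts citrate exported from mitochondria into cytosolic acetyl-CoA. It had 115, 154 and 183 FPKM as lowest, median and highest values in pineal glands, against 39.8, 40.2 and 47.5 FPKM in retinas, with no overlap. The log2 difference was 1.83 (SE 0.11, limma adjusted p = 4.69e-10), and the pineal mean was 3.66 times the retina mean. Acss2, which activates acetate, and Aacs, which activates the ketone body acetoacetate, did not pass the test. Acss2 had 7.69 ± 0.883 FPKM in pineal glands and 7.87 ± 0.608 FPKM in retinas, and Aacs had 17.5 ± 5.06 FPKM in pineal glands and 14.8 ± 2.51 FPKM in retinas (SD, n = 6 each).

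Of the fatty acid genes, 1 was higher and 6 were lower in the pineal gland. Acaca, the cytosolic acetyl-CoA carboxylase, at chr10:72483772-72677134, had 4.84, 6.67 and 8.53 FPKM as lowest, median and highest values in pineal glands, against 14.2, 16.4 and 18.0 FPKM in retinas. It did not overlap between the tissues, with a log2 difference of -1.19 (SE 0.12, limma adjusted p = 4.11e-07). Acaca, an enzyme that uses Acly's product, was thus lower where Acly was higher, and a link between them was not tested. Fads1 and Fads2, the desaturases of polyunsaturated fatty acids, averaged 6.24 ± 2.06 and 7.69 ± 2.08 FPKM in pineal glands, against 14.7 ± 1.23 and 13.3 ± 1.80 FPKM in retinas (SD, n = 6 each). Elovl5, an elongase of the same polyunsaturated chains, was higher in the pineal gland, at 8.56 ± 1.84 FPKM, against 5.16 ± 0.8002 FPKM in retinas (SD, n = 6 each). Elovl6, the elongase of saturated chains, was lower, at 5.09 ± 0.556 FPKM in pineal glands and 7.80 ± 0.752 FPKM in retinas.

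Scd and Scd1 are neighbouring, closely similar stearoyl-CoA desaturases on chromosome 1, at chr1:249358105-249371164 and chr1:249458860-249471460, and how the authors' processing split reads between them is not given in the sources used here. Scd had 87.4 ± 16.9 FPKM in pineal glands and 107 ± 11.3 FPKM in retinas, and Scd1 had 1.39 ± 0.474 and 2.56 ± 0.440 FPKM (SD, n = 6 each tissue). Both passed as lower in the pineal gland, though the libraries overlapped. The call for Scd was lost without any of 3 pineal libraries (ZT7, ZT15 or ZT19) or 4 retina libraries (ZT1, ZT7, ZT15 or ZT23), with adjusted p-values up to 0.0842.

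**Figure D2:**
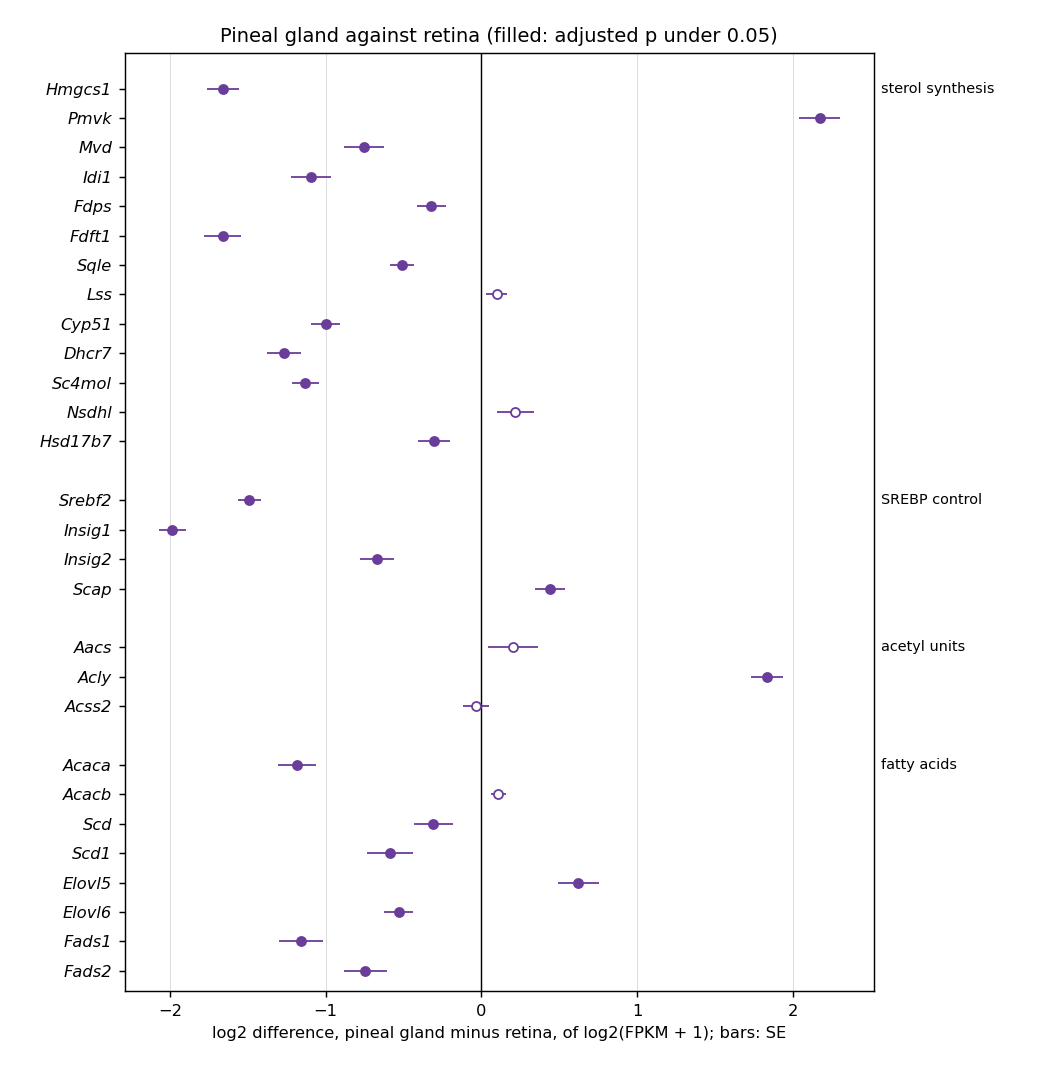
Log2 difference (pineal gland minus retina, on log2(FPKM + 1)) of each of the 28 genes, with bars for the SE and filled points where the adjusted p was under 0.05. Pmvk at 2.17 and Acly at 1.83 stand to the right, and Insig1 at -1.98, Hmgcs1 and Fdft1 at -1.66 and Srebf2 at -1.49 lie to the left.

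Markers of other cell types in the dissected tissues also differed in this comparison. The summed markers of glia (5 genes found of 7) were 710 to 902 FPKM in pineal glands and 370 to 471 FPKM in retinas, but 1 abundant gene made up most of both sums. Of the 5 glial genes that one was higher in the pineal gland, Rlbp1, Slc1a3 and Aqp4 were lower and Gfap did not pass (limma adjusted p = 0.456), with a median log2 difference of -1.68. Markers of meninges and fibroblasts (5 of 5, all 5 higher in the pineal gland) summed to 153 to 483 FPKM in pineal glands and 41.6 to 66.6 FPKM in retinas. Blood markers (3 of 4, all 3 higher) summed to 576 to 1110 FPKM in pineal glands and 42.5 to 83.5 FPKM in retinas, and adipocyte markers (4 of 5) to 7.25 to 13.9 FPKM in pineal glands and 0.0785 to 0.481 FPKM in retinas. The adipocyte sum was in effect that of Cfd, the 1 of 3 tested genes that was higher, as the other 3 genes found stayed under 1 FPKM in every pineal library. Microglia (5 of 5, all 5 higher) gave 30.5 to 46.9 FPKM in pineal glands and 9.01 to 14.0 FPKM in retinas. Their part in the differences above was not tested, and in bulk tissue fewer cells of a type and less RNA per cell cannot be told apart.

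The authors' table lists 2 transcripts of Acly. NM_016987 averaged 125 ± 20.7 FPKM in pineal glands, 31.6 ± 2.58 FPKM in retinas (SD, n = 6 each) and 21.0 ± 2.34 FPKM in mixed tissue (SD, n = 2). NM_001111095 averaged 27.5 ± 5.97 FPKM in pineal glands, 10.0 ± 1.43 FPKM in retinas and 21.1 ± 0.725 FPKM in mixed tissue. The share of NM_016987 was thus 80.0% to 83.8% of Acly's FPKM in pineal glands, 70.5% to 78.9% in retinas, and 47.2% and 52.3% in mixed tissue at ZT7 and ZT19, and the 3 ranges did not overlap. These shares are estimates that divide reads between transcripts of mostly shared sequence, and no test was made on them. The plot of both transcripts by library shows that both were higher in every pineal library than in any retina library.

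**Figure D3:**
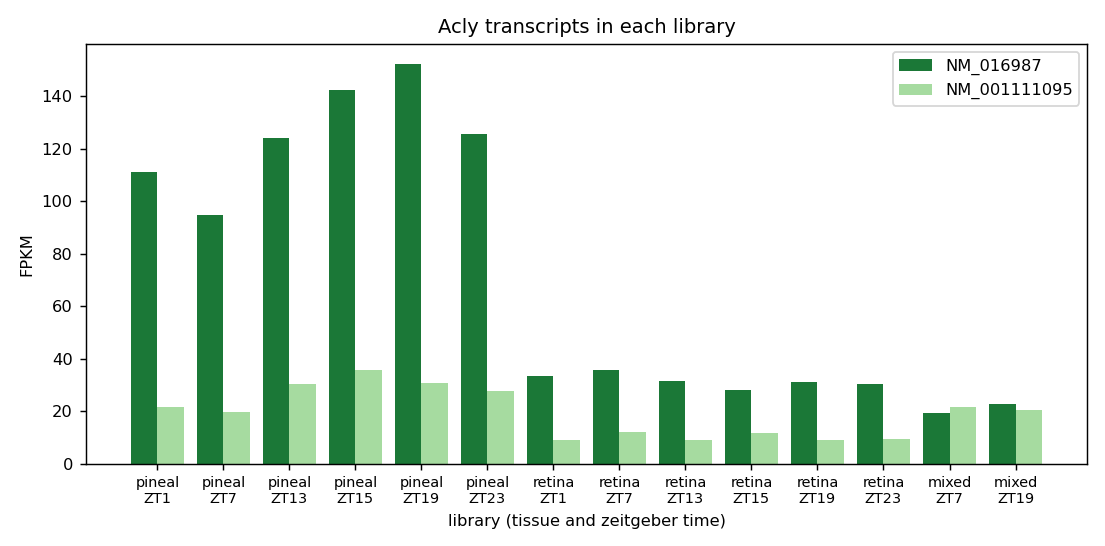
FPKM of the 2 Acly transcripts in each library (bars from 0; dark green NM_016987, light green NM_001111095). NM_016987 reaches 94.8 to 152 FPKM in pineal glands and 28.0 to 35.6 FPKM in retinas, and both transcripts lie between 19.3 and 22.6 FPKM in mixed tissue.

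Against mixed tissue, nearly all of these genes were lower in both the pineal gland and the retina. In the pineal gland 26 of 28 genes differed, 3 higher (Pmvk, Acly and Aacs) and 23 lower, where 64.8% of all genes tested differed, 19.8% higher and 45% lower. In the retina 25 of 28 differed, 1 higher (Acaca) and 24 lower, where 65% of all genes differed, 18.4% higher and 46.6% lower. The median log2 difference was -1.66 for the pineal gland, against -0.25 for all genes, and -1.16 for the retina, against -0.30 for all genes. Without Acacb and Hsd17b7, 24 of 26 genes differed for the pineal gland, 3 higher and 21 lower. For the retina 23 of 26 differed, 1 higher and 22 lower. Of the 10416 genes that would enter without the mixed tissue libraries, 60.7% differed for the pineal gland, 22.1% higher and 38.6% lower. For the retina 61% of them differed, 20.6% higher and 40.4% lower. Between pineal gland and mixed tissue, libraries did not overlap for 27 genes, 3 higher and 24 lower, against 65.3% of all genes, 19.9% higher and 45.3% lower. Between retina and mixed tissue they did not overlap for 24 genes, 1 higher and 23 lower, against 70.1%, 21.7% higher and 48.4% lower. Acacb and Hsd17b7 are among the lower genes in both of these counts. As they entered only or mainly through the mixed tissue libraries, the filter itself favours that direction for them. Both comparisons share the 2 mixed tissue libraries, so each tissue's values are given side by side.

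The desaturases of fatty acids were far higher in mixed tissue. Scd1 had 0.792 to 2.07 FPKM in pineal glands (median 1.40), 1.84 to 3.11 FPKM in retinas (median 2.67), and 38.1 and 62.6 FPKM in mixed tissue at ZT7 and ZT19. No pineal or retina library came near either mixed pool, and the log2 differences were -4.41 for the pineal gland (limma adjusted p = 3.72e-11) and -3.82 for the retina (limma adjusted p = 2.93e-10). Scd had 62.4 to 109 FPKM in pineal glands (median 86.0), 90.0 to 120 FPKM in retinas (median 107), and 447 and 387 FPKM in mixed tissue at ZT7 and ZT19, with log2 differences of -2.26 for the pineal gland and -1.95 for the retina.

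Fads1 and Fads2 followed. Fads1, at chr1:212670792-212685716, had 4.43 to 9.81 FPKM in pineal glands, 12.96 to 16.3 FPKM in retinas and 50.9 and 50.7 FPKM in mixed tissue at ZT7 and ZT19, with log2 differences of -2.88 for the pineal gland (limma adjusted p = 3.95e-09) and -1.72 for the retina (limma adjusted p = 2.02e-06). Fads2, close by at chr1:212512691-212542621, had 5.69 to 10.8 FPKM in pineal glands, 10.7 to 15.7 FPKM in retinas and 60.2 and 56.9 FPKM in mixed tissue, with log2 differences of -2.81 and -2.06. For both genes the retina stood between the pineal gland and mixed tissue. Elovl5, in contrast, was lowest in the retina, with 6.05 to 11.2 FPKM in pineal glands, 4.49 to 6.68 FPKM in retinas and 32.8 and 24.2 FPKM in mixed tissue, and log2 differences of -1.63 for the pineal gland and -2.26 for the retina.

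In the sterol pathway, 12 of 13 enzymes were lower in the pineal gland than in mixed tissue, against 45% of all genes tested. In the retina 12 of 13 were lower, against 46.6% of all genes tested. The exceptions were Pmvk for the pineal gland and Mvd, which did not pass the test, for the retina. Hsd17b7, which entered mainly through the mixed tissue libraries, is among the 12 in both comparisons. Hmgcs1 had 89.7 and 96.8 FPKM as the lower and higher mixed tissue value, and its log2 differences were -3.16 for the pineal gland (limma adjusted p = 1.88e-11) and -1.50 for the retina (limma adjusted p = 2.07e-07). Cyp51, at chr4:26752677-26771129, had medians of 5.59 FPKM in pineal glands and 10.97 FPKM in retinas, and 52.2 and 48.6 FPKM in mixed tissue at ZT7 and ZT19, which gave log2 differences of -3.04 and -2.04. Dhcr7 had 24.6 and 31.2 FPKM in mixed tissue at ZT7 and ZT19, and log2 differences of -3.60 for the pineal gland (limma adjusted p = 1.26e-11) and -2.33 for the retina (limma adjusted p = 3.58e-09). The mixed tissue mean of Dhcr7 was 20.1 times the pineal mean and 5.85 times the retina mean.

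Of the 4 sensor genes, Srebf2, Insig1 and Insig2 were nearer to their mixed tissue level in the retina than in the pineal gland, and Scap was not. Srebf2 had 36.1 and 30.1 FPKM in mixed tissue at ZT7 and ZT19, with log2 differences of -1.85 for the pineal gland (limma adjusted p = 2.36e-10) and -0.36 for the retina (limma adjusted p = 0.00657). Insig1 had 14.8 and 14.1 FPKM, with log2 differences of -2.60 for the pineal gland and -0.62 for the retina, and the log2 differences of Insig2 were -1.12 and -0.45. Scap averaged 16.5 FPKM in pineal glands, 11.9 FPKM in retinas and 15.1 FPKM in mixed tissue. Its log2 difference from mixed tissue was 0.12 for the pineal gland (limma adjusted p = 0.445) and -0.32 for the retina (limma adjusted p = 0.0490). The retina differences of Srebf2, Insig2 and Scap were smaller than the shift of the median of all genes under quantile scaling, given below. These small differences from mixed tissue therefore depend on the scaling chosen. In the direct comparison of pineal gland and retina all 4 genes differed, Scap higher and the other 3 lower in the pineal gland.

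The genes that were not lower were Acly, Pmvk, Aacs, Acaca and Scap in the pineal gland, and Acly, Aacs, Acaca and Mvd in the retina. Acly had 40.9 and 43.2 FPKM in mixed tissue at ZT7 and ZT19, close to the retina's median of 40.2 FPKM and under every pineal library, and the log2 difference was 1.82 for the pineal gland (limma adjusted p = 2.72e-08) and -0.02 for the retina (limma adjusted p = 0.933). With only the highest transcript of each gene in place of the sum, Acly's difference between retina and mixed tissue became 0.57 (limma adjusted p = 0.00345). Pmvk had 14.4 and 10.96 FPKM in mixed tissue, a log2 difference of 1.54 for the pineal gland (limma adjusted p = 2.09e-06) and -0.63 for the retina (limma adjusted p = 0.00682). Acaca had 9.36 and 8.55 FPKM in mixed tissue; it was higher in the retina by 0.79 (limma adjusted p = 0.000830) and did not pass for the pineal gland, at -0.39 (limma adjusted p = 0.0559). Aacs passed for the pineal gland at 0.61 (limma adjusted p = 0.0264), which was lost without the mixed tissue library of ZT19 (adjusted p = 0.214). Mvd did not pass for the retina at -0.37 (limma adjusted p = 0.0854). Acss2, the other gene of acetyl supply, was lower in both tissues, with log2 differences of -1.46 for the pineal gland and -1.42 for the retina.

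**Figure D4:**
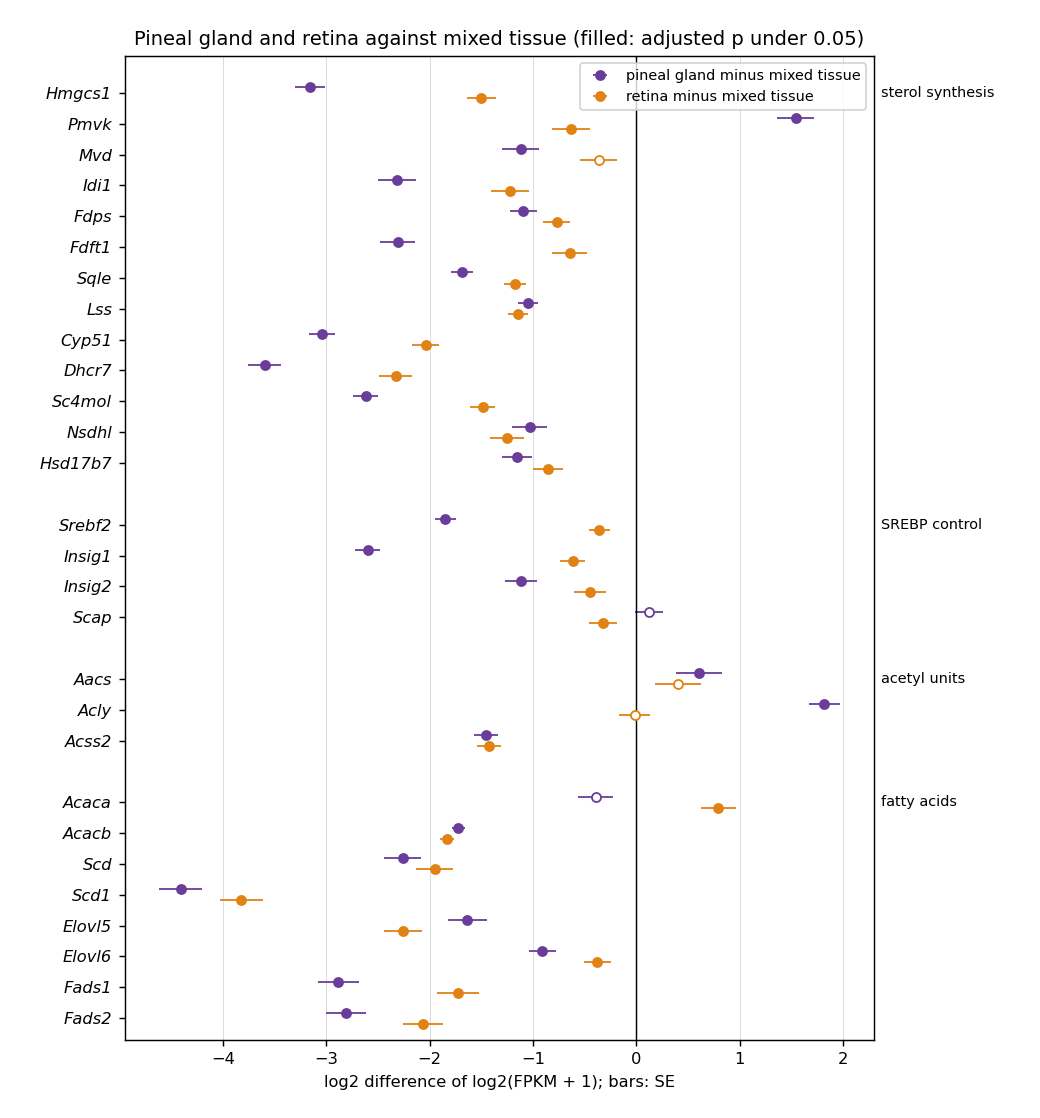
Log2 difference from mixed tissue of each of the 28 genes in the pineal gland (purple) and the retina (orange), on log2(FPKM + 1), with bars for the SE and filled points where the adjusted p was under 0.05. Most points lie left of 0, down to -4.41 for Scd1 in the pineal gland, while Acly and Pmvk in the pineal gland lie at 1.82 and 1.54.

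Markers of oligodendrocytes, liver and adrenal cortex, cells known for lipid synthesis, were high in mixed tissue and low elsewhere. Oligodendrocyte markers (7 of 7 found) summed to 9.57 to 27.3 FPKM in pineal glands, 12.3 to 16.4 FPKM in retinas, and 4234 and 3678 FPKM in mixed tissue at ZT7 and ZT19. Liver markers (5 of 6) summed to 0.831 to 9.70 FPKM in pineal glands, 0.0285 to 0.212 FPKM in retinas, and 2306 and 2002 FPKM in mixed tissue, and adrenal cortex markers (5 of 5) to 0.106 to 0.323 FPKM, 1.33 to 1.83 FPKM, and 486 and 926 FPKM. All 5 adrenal markers stayed under 1 FPKM in every pineal library, as did all 5 liver markers in every retina library. The part of these cells in the differences from mixed tissue was not tested. Scaling by quantiles or by median ratios moved the median of all genes by 0.47 or 0.21 for the pineal gland and 0.49 or 0.27 for the retina, and with quantiles 20 of 28 genes differed between retina and mixed tissue, 2 higher and 18 lower.

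The mixed tissue pools had 1 library at each time, so their day and night values have no test. Scd1 had 62.6 FPKM at ZT19 and 38.1 FPKM at ZT7, and Hsd17b7 had 2.93 FPKM at ZT19 and 1.83 FPKM at ZT7, the largest ratios of ZT19 over ZT7 among the 28 genes (1.64 and 1.60). Mvd had 7.89 FPKM at ZT19 and 12.8 FPKM at ZT7, the smallest ratio (0.616). The adrenal marker sum was 926 FPKM at ZT19 and 486 FPKM at ZT7, and the oligodendrocyte sum 3678 FPKM at ZT19 and 4234 FPKM at ZT7; their part in these ratios was not tested.

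Over the day, 5 of the 26 genes that passed the filter in the time series (19.2%) fitted a 24-h rhythm in the pineal gland at an adjusted p under 0.05. That share is near the background of 20.7% of all 10416 genes tested. Of the 5, Hmgcs1, Fdft1 and Acaca peaked in the light (background 14.1%), and Acly and Nsdhl in the dark (background 6.61%). The median fitted change from trough to peak was 0.41 on the log2 scale for the 26 genes, against 0.39 for all genes. The fit took its error from both tissues, and with the 6 pineal libraries alone 0 of 26 passed. With 1 library left out at a time, 3 to 9 passed, 9 without pineal ZT7, 8 without pineal ZT19 and 3 without pineal ZT13, or without retina ZT13, ZT15, ZT19 or ZT23.

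Acly rose towards the night. Its values from ZT1 over ZT7, ZT13, ZT15 and ZT19 to ZT23 were 133, 115, 154, 178, 183 and 153 FPKM in pineal glands and 42.3, 47.5, 40.2, 39.8, 40.3 and 39.9 FPKM in retinas. The pineal gland was lowest at ZT7 and highest at ZT19, while the retina was highest at ZT7 and varied little otherwise. The fitted change in the pineal gland was 0.72 on the log2 scale with a peak at ZT17.8 (limma adjusted p = 0.00369). The rhythm differed between pineal gland and retina by 0.98 on the log2 scale (limma adjusted p = 0.0130), but without the retina library of ZT7 that difference did not pass (adjusted p = 0.127). Acly and Nsdhl were the 2 of 26 genes (7.69%) whose rhythm differed between the tissues, where 4.95% of all genes differed. That count was 0 without retina ZT7, 5 without pineal ZT19 and 1 without any of pineal ZT7, ZT13 or ZT23, or retina ZT13, ZT15, ZT19 or ZT23.

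Acaca and Hmgcs1 peaked around the end of the light period. Acaca had 5.23, 7.11, 8.53, 8.26, 6.23 and 4.84 FPKM in pineal glands from ZT1 to ZT23 and 14.7, 18.0, 17.4, 18.0, 15.4 and 14.2 FPKM in retinas. Hmgcs1 had 7.99, 9.39, 11.8, 11.9, 9.04 and 7.86 FPKM in pineal glands and 32.2, 37.7, 32.3, 31.4, 30.7 and 30.1 FPKM in retinas. In the pineal gland both were highest at ZT13 and ZT15 and lowest at ZT23. The fitted changes were 0.70 with a peak at ZT12.0 for Acaca (limma adjusted p = 0.00282) and 0.56 with a peak at ZT12.8 for Hmgcs1 (limma adjusted p = 0.00686). Neither differed in rhythm between the tissues at the threshold (adjusted p = 0.216 for Acaca and 0.0645 for Hmgcs1). With the pineal libraries alone, the adjusted p was 0.0513 for Acaca, 0.0542 for Acly and 0.0827 for Hmgcs1, and these 3 calls held under each of the other alternatives.

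Nsdhl and Fdft1 passed less firmly. Nsdhl had 10.1, 7.13, 7.58, 8.83, 9.06 and 11.3 FPKM in pineal glands from ZT1 to ZT23 and 7.97, 9.44, 8.36, 7.43, 5.90 and 6.51 FPKM in retinas, high at the end of the night in the pineal gland and at ZT7 in the retina. Its fitted change was 0.55 with a peak at ZT21.9 in the pineal gland (limma adjusted p = 0.0367), and the difference of rhythm from the retina was 1.11 (limma adjusted p = 0.0260). The pineal rhythm passed in 10 of 20 alternatives and the difference in 11 of 19, the highest adjusted p-values being 0.166 and 0.0900. Without pineal ZT7, for example, the difference did not pass (adjusted p = 0.0789).

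Fdft1 had 4.87, 5.25, 5.52, 4.21, 2.81 and 3.69 FPKM in pineal glands from ZT1 to ZT23 and 16.4, 19.2, 15.2, 15.0, 14.8 and 14.6 FPKM in retinas. Its fitted change in the pineal gland was 0.72 with a peak at ZT7.87 (limma adjusted p = 0.0448), and it passed in 6 of 20 alternatives. Late in the dark (ZT19 and ZT23) it averaged 3.25 ± 0.623 FPKM (SD, n = 2), against 5.21 ± 0.325 FPKM in the light at ZT1, ZT7 and ZT13 (SD, n = 3), and the values did not overlap. The log2 difference was -0.55 (SE 0.13, limma adjusted p = 0.0314), and -0.43 with median ratio scaling, which moved the median of all genes by 0.11. It was the only one of 26 genes that passed for late dark against light in the pineal gland (3.85%), where 7.28% of all genes passed, 3.04% higher and 4.23% lower. Its lowest value was in the pineal library of ZT19, the one in which 39.6% of all genes had their lowest value, and leaving it out gave a difference of -0.40 (adjusted p = 0.223). It was also lost without pineal ZT7 (adjusted p = 0.101) or ZT13 (0.0831), or retina ZT19 or ZT23 (0.0598 each).

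**Figure D5:**
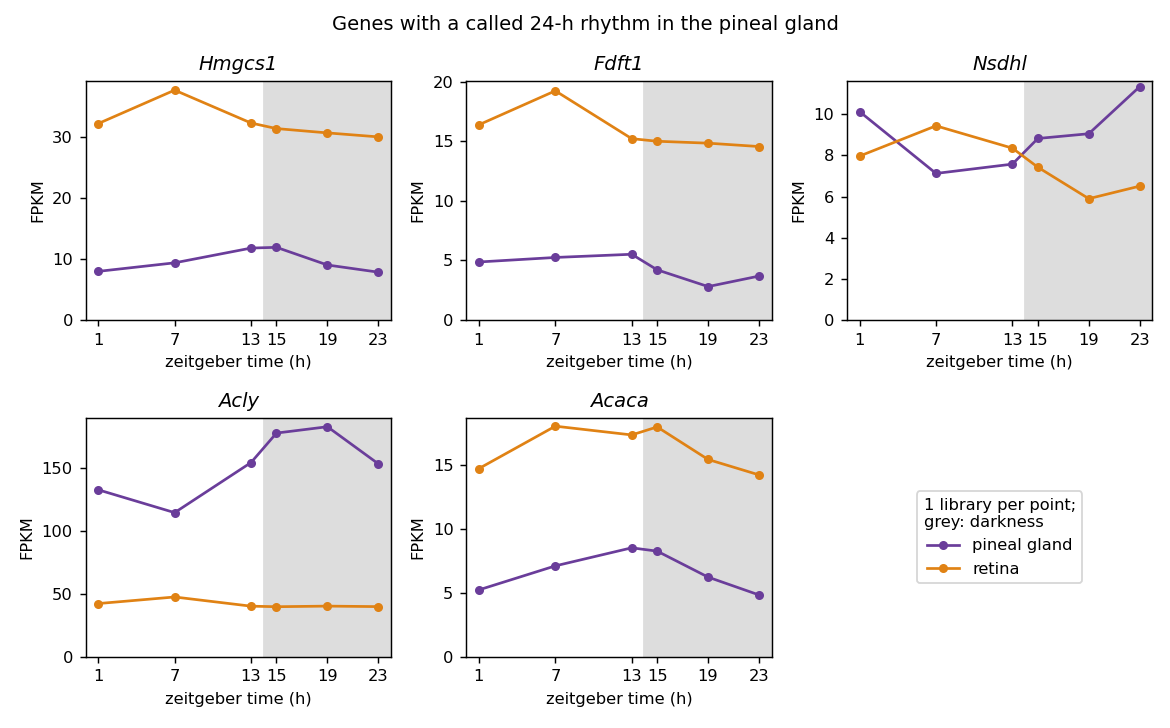
FPKM of Hmgcs1, Fdft1, Nsdhl, Acly and Acaca over zeitgeber time (h) in the pineal gland (purple) and the retina (orange), 1 library per point, with darkness shaded from ZT14. In the pineal gland Acly is highest at ZT19 and lowest at ZT7, Acaca and Hmgcs1 are highest at ZT13 and ZT15, Nsdhl at ZT23 and Fdft1 at ZT13.

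Of the genes that did not pass for a rhythm in the pineal gland, Pmvk came nearest, with 29.7, 29.3, 46.5, 49.3, 38.0 and 42.3 FPKM from ZT1 to ZT23 and a fitted change of 0.70 (limma adjusted p = 0.0544). It passed in 6 of 20 alternatives. The 4 sensor genes had fitted changes of 0.18 to 0.33 and adjusted p-values of at least 0.187. In the pineal gland 8 of the 26 genes (30.8%) had their highest value at ZT13, against 23.5% of all genes tested, and 8 (30.8%) had their lowest at ZT7, against 13.6%.

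In the retina, 0 of 26 genes passed for a rhythm with limma and 5 had an unadjusted p under 0.05, where 1.02% of all genes passed, 0.701% peaking in the light and 0.317% in darkness. Late dark against light gave 0 of 26 in the retina, with 1 gene at an unadjusted p under 0.05 and 0.0096% of all genes called. The difference of the late dark change between pineal gland and retina gave 0 of 26 as well, with 3 genes at an unadjusted p under 0.05, where 0.71% of all genes passed, 0.566% higher and 0.144% lower. The highest retina value was at ZT7 for 17 of the 26 genes (65.4%), and that library had the highest value for 51.2% of all genes; its summed FPKM, 179277, was above the 152281 to 161184 of the other 5.

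Neighbouring steps outside the 28 genes, taken as lists by role, are read against the background of pineal gland and retina, where 68.9% of all genes tested differed, 36.9% higher and 32% lower. Of 12 further genes of sterol synthesis and its targets, 4 were higher and 4 lower in the pineal gland, a share near that background. Of these 12 genes 1 passed the filter only with the mixed tissue libraries, and of the other 11, 4 were higher and 4 lower (36.4% each). Of the 10416 genes that passed without mixed tissue, 38.9% were higher and 33.8% lower. Tm7sf2, a sterol reductase, had 46.1 ± 9.34 FPKM in pineal glands and 3.49 ± 0.213 FPKM in retinas, a log2 difference of 3.37 (limma adjusted p = 8.07e-13). Stard4, a sterol carrier, had 0.731 ± 0.223 FPKM in pineal glands and 9.69 ± 0.487 FPKM in retinas, a difference of -2.63 (limma adjusted p = 5.13e-13). SDs are over 6 libraries of each tissue.

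Of 9 genes of isoprenoid use, 3 were higher and 2 lower in the pineal gland, and of 16 regulators and processing factors of the sterol sensor, 6 were higher and 7 lower, against the same 36.9% higher and 32% lower of all genes. Of the 16 regulators 1 passed the filter only with the mixed tissue libraries. Among the other 15, 6 were higher and 7 lower (40% and 46.7%), against 38.9% and 33.8% of the 10416 genes that passed without mixed tissue. Ppara, a nuclear receptor for fatty acids, differed by -2.95, and Nfyb, a subunit of the CCAAT-binding factor NF-Y, by -1.23. Of 28 tested genes of fatty acid elongation, activation and use, 12 were higher and 12 lower in the pineal gland, and without the 1 gene that passed the filter only with the mixed tissue libraries 11 of 27 were higher and 12 lower. Elovl4, the elongase of very long chains that photoreceptors use, had 14.8 ± 1.69 FPKM in pineal glands and 198 ± 22.8 FPKM in retinas (SD, n = 6 each), a difference of -3.66 (limma adjusted p = 2.33e-14).

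Of 23 tested genes of sterol uptake, transport and removal, 11 were higher and 4 lower in the pineal gland. Of these genes 6 passed the filter only with the mixed tissue libraries, and of the other 17 genes 10 were higher and 3 lower (58.8% and 17.6%), against 38.9% and 33.8% of the 10416 genes that passed without mixed tissue. Lpl, lipoprotein lipase, had 128 ± 15.3 FPKM in pineal glands and 5.03 ± 0.854 FPKM in retinas (SD, n = 6 each), a log2 difference of 4.43 (limma adjusted p = 6.00e-14), and Lcat, which esterifies cholesterol on lipoproteins, differed by 2.37. Against mixed tissue, where the filter itself favours lower values for those 6 genes, 8 of the other 17 genes were lower (47.1%) and 3 higher (17.6%) in the pineal gland, against 38.6% lower and 22.1% higher of the same 10416 genes. In the retina 14 of the 17 were lower (82.4%) and 1 higher (5.88%), against 40.4% lower and 20.6% higher. With the 6 genes included the counts were 14 lower and 3 higher of 23 in the pineal gland, and 20 lower and 1 higher in the retina, against 45% and 46.6% lower of all 11656 genes tested.

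Over the day the strongest pineal rhythms in these neighbouring lists were in transport and storage. Abca1, which exports cholesterol, had 27.2, 8.25, 8.98, 9.23, 53.1 and 38.8 FPKM in pineal glands from ZT1 to ZT23, against 0.842 to 1.23 FPKM in retinas. Its fitted change was 2.87 with a peak at ZT21.6 (limma adjusted p = 0.000985). Dgat2, which makes triglycerides, had 8.69, 3.10, 7.06, 10.5, 15.7 and 13.1 FPKM in pineal glands, with a fitted change of 2.09 and a peak at ZT19.5 (limma adjusted p = 4.06e-05), and 3.75 to 4.84 FPKM in retinas. Both were lowest at ZT7 and highest at ZT19 in the pineal gland, the times at which Acly was lowest and highest. In these lists 7 of 17 genes of uptake and removal, 6 of 27 of fatty acid use, 3 of 11 of sterol synthesis, 4 of 9 of isoprenoid use and 1 of 15 of the regulators passed for a pineal rhythm, against the same background of 20.7%.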

How the data were processed

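Pineal gland, retina and mixed tissue RNA was sequenced after poly(A) enrichment and random priming, with barcoded paired-end libraries, per the labels' protocols. Tools named in the submitters' processing notes are TopHat 1.3.1, Cufflinks 1.2.0 and the rn4 build, with no roles given. The authors deposited FPKM for each RefSeq transcript in each library. The table held 16932 transcripts, and FPKM were summed per gene ID (342 genes had several transcripts), which gave 16472 genes, 11 of them transcripts without a gene ID. Whether reads keep strand is not given in the sources used here. Starts in the table count from 0 (with 1 added, 99.7% of 1192 olfactory receptor spans were whole codons, against 0.1%), so 1 was added to printed starts. Because FPKM is a share of a library's fragments, very abundant transcripts lower all others.

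Tests used limma 3.58.1 (R 4.3.3; moderated variances with a mean trend) on log2(FPKM + 1) values. Genes had to reach 1 FPKM in 2 or more of the libraries fitted, which left 10416 genes over the 12 time series libraries and 11656 over all 14. The pseudocount understates changes of low genes. Rhythm was a 24-h cosine and sine per tissue (moderated F test), the late dark comparison set ZT19 and ZT23 against ZT1, ZT7 and ZT13 with a mean of its own for ZT15 (6 residual degrees of freedom each), and tissue means were compared in a fit of all libraries (11 residual degrees of freedom). A fitted change is the log2 distance from trough to peak; for a difference of rhythm it is that of the difference curve. Tests were two-sided, with Benjamini-Hochberg adjustment over all genes tested and a threshold of 0.05. The script was tested on simulated data. No test was made on the genes as a list; counts stand beside the share of all genes called.

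Values in every library, or lowest, median and highest, are given for genes that passed a rhythm or late dark test, the 8 with the largest pineal minus retina difference and the 6 with the largest differences from mixed tissue; from neighbouring lists at most 3 genes with the lowest adjusted p were named. Some genes of these lists are not reported here. The genes, lists and tests were chosen with earlier results of these data known. Alternatives were other pseudocounts (0.1 and 5 FPKM), filters, scalings, transcripts, tissues fitted alone, ZT15 grouped with the dark, collection time as a block, and each library left out. Sc5dl, an older symbol for Sc5d in RefSeq, was left out because the rule goes by symbol.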

Additional observations from a re-analysis of the deposited data

Results flagged for a closer look

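In 4 of 56 sets of 6 libraries (28 genes in 2 tissues), the highest library stood apart from the other 5, by a gap over the critical share of the range; chance marks about 1 set in 20. Hmgcs1 had 37.7 FPKM and Acly had 47.5 FPKM in the retina library of ZT7, which also had the highest summed FPKM of the retina libraries. Insig1 had 10.3 FPKM in the retina library of ZT19, in which 3 lens markers summed to 615 FPKM, against 43.1 to 266 FPKM in the other retina libraries; their part was not tested. Srebf2 had 10.2 FPKM in the pineal library of ZT7, against 8.01 to 8.28 FPKM in the other 5 pineal libraries.

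The daily course differed between pineal gland and retina for Nsdhl (limma adjusted p = 0.0260, a difference of 1.11 on the log2 scale) and Acly (limma adjusted p = 0.0130, a difference of 0.98). Acly was above the retina in 6 of 6 pineal libraries, and Nsdhl in 4 of 6.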

How the results depend on the processing

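Of the genes that differed between the tissues, 21 of 23 between pineal gland and retina (all but Hsd17b7 and Scd), 24 of 26 between pineal gland and mixed tissue (all but Hsd17b7 and Aacs) and 18 of 25 between retina and mixed tissue passed under every alternative run. Of the rhythm and late dark calls none passed under every one. With 1 library left out at a time, the counts ran from 22 to 23 for pineal gland against retina, 24 to 27 for pineal gland against mixed tissue and 19 (without mixed tissue ZT7) to 25 for retina against mixed tissue. They ran from 3 to 9 for the pineal rhythm, 0 to 1 for the retina rhythm, 0 (without retina ZT7) to 5 (without pineal ZT19) for the difference of rhythm, 0 to 1 for late dark in the pineal gland, 0 to 0 in the retina and 0 to 1 for the difference of the late dark change. The pineal rhythm count was 8 with median ratio scaling and 0 with the pineal libraries alone, and the retina rhythm count was 1, Nsdhl, with the retina libraries alone. The late dark count in the pineal gland was 0 with a pseudocount of 5 FPKM, 0 without a filter on low values, 0 with the pineal libraries alone, 0 with ZT15 grouped with the dark, and 2 with median ratio scaling. Between retina and mixed tissue, Hsd17b7 changed sign to 0.082 with quantile normalization (adjusted p = 0.650), and the cause was not tested. Acly changed sign to 0.57 with the highest transcript alone (adjusted p = 0.00345). That setting leaves out NM_001111095, which held 24.0% of Acly's FPKM in retinas and 50.2% in mixed tissue. With collection time as a replicate block, 22 of 26 genes differed between pineal gland and retina. The labels do not say that pineal and retina pools of a time came from the same animals, so the samples were not taken as paired. Deviations of same-time libraries correlated at 0.049 to 0.270. The best matching retina library had the same time for pineal ZT1, ZT7, ZT13 and ZT23, but not for ZT15 and ZT19. These correlations cannot show whether animals were shared, since same-time libraries also share a time of day. Depth was unknown, so values under about 1 FPKM (Acacb, Hsd17b7) are the least certain.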
